A study of Mus musculus with 12 samples.

Results

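This account follows 10 genes of conventional and plasmacytoid dendritic cells, Flt3, Siglech, Pld4, Ccr9, Tcf4, Runx2, Itgax, Zbtb46, Xcr1 and Batf3, in purified bone marrow monocytes and macrophages of mice with and without a human leukemia. The genes were chosen by name, and each was read from the transcript cluster, the array's unit for 1 gene locus, with the highest mean over the 12 arrays. A cluster under its name was found for 9 of the 10, out of 30701 named genes and 65956 transcript clusters. No intensity of Runx2 was analysed here, only its promoter sequence. All 12 mice, controls included, were Rag2-/- gamma c-/- on a BALB/c background, a genotype without mature T, B and natural killer cells. The leukemia came from MEC1 cells, an established human line of chronic lymphocytic leukemia B cells, given by vein to 6 of the mice. There were 4 groups of 3 mice, with and without MEC1 at 21 days (all aged 11 weeks) and with and without MEC1 at 31 days (all aged 13 weeks). Mice without MEC1 are called controls here, and every mouse had its own Clariom D array. The surface marker used in the magnetic separation was not given in the sources used here.

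Dendritic cells take up antigen and show it to T cells. They arise in the bone marrow from progenitors that carry Flt3, and Flt3 ligand drives their growth. Conventional dendritic cells fall into a type 1, which needs Batf3 and carries Xcr1, and a type 2. Plasmacytoid dendritic cells secrete type I interferon after sensing nucleic acids, and their identity depends on Tcf4. Several of these genes are also active elsewhere: Flt3 in early progenitors, Pld4 and Itgax in monocytes and macrophages, and Tcf4 in many tissues.

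The promoters of Flt3 and Siglech are shown because these genes were lower together in MEC1 mice and because Tcf4, the factor of plasmacytoid dendritic cells, binds E-boxes. The capitals mark E-boxes, CANNTG, which read the same on both strands. The sequences are those of RefSeq on GRCm38.p6, 5′ to 3′ on the strand of the gene. They end before the outermost start of the gene: 250 bases at chr5:147400490-147400739 on the minus strand for Flt3 and 220 bases at chr7:55767934-55768153 on the plus strand for Siglech.
Flt3: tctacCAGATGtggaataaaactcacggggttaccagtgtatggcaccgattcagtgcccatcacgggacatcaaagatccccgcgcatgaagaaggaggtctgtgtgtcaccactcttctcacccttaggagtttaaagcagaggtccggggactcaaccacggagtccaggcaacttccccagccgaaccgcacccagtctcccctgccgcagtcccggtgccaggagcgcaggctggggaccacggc
Siglech: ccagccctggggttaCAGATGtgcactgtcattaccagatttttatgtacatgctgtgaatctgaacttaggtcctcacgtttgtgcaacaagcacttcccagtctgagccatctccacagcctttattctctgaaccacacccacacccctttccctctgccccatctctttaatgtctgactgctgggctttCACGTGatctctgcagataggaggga
In the 250 bases before the start of transcription given in the table, an E-box was found in 8 of the 9 members with a promoter there, Itgax being the exception. The same was true of 66.2% of all 32851 promoters, so these letters do not set the members apart. The sequence GAGGAA, a form bound by the myeloid factor PU.1, was found in 1 of the 9, Batf3, and in 23.3% of all. The RUNX sequence TGTGGT was found in Siglech and Runx2 and in 14.0% of all. The composite site of ETS and IRF factors was found in none of the 9 and in 2.3% of all. Each was searched on both strands. A match is a description of the letters only.

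The labelled cell type was checked against its markers. The monocyte and macrophage genes had a mean log2 intensity of 11.62 to 11.94 on the arrays of control mice, led by Lyz2 and Ly6c2, while neutrophil genes such as Ngp and S100a8 were also bright (list means of 13.66 to 14.83), as were erythroid genes (10.25 to 12.04). The arrays of MEC1 mice differed as a whole from those of controls. The bacterial hybridisation controls, which are spiked in and come from no mouse cell, had means of 10.81 ± 0.0869 without and 11.92 ± 0.118 with MEC1 (SD, n = 3) on the earlier day. On the later day these means were 10.62 ± 0.128 and 12.57 ± 0.54. The median of the array was higher with MEC1 too, from 3.86 to 4.06 at 21 days and from 3.81 to 4.24 at 31 days. The median of the negative control features went the other way, from 5.17 to 4.81 and from 4.96 to 4.63, so the arrays did not brighten evenly. Over all 37240 clusters tested with limma, 1615 (4.34%) passed a Benjamini-Hochberg adjusted p of 0.05 at 21 days and 16297 (43.8%) at 31 days. The latter were 8430 rises and 7867 falls, or 2785 and 13739 when each array was centred on its median.

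Of the 9 members on the array, 8 were bright enough to be tested and Xcr1 was not. At 21 days 2 of the 8 fell in MEC1 mice, Siglech and Pld4, where 2.51% of all tested clusters fell. At 31 days 3 of the 8 fell, Flt3, Siglech and Pld4, where 21.1% of all fell. With each array centred on its median 7 of the 8 passed as falls at 31 days, all but Batf3, where 13739 of all 37240 clusters did. With quantile normalization 4 passed, Zbtb46 being the added one, where 5620 of all 37240 did. None of the 8 rose at 21 days, where 1.83% of all rose, or at 31 days, where 22.6% rose. In limma Flt3, Siglech and Pld4 were the 3 with an unadjusted p under 0.05 on each day, a share that was not counted over all clusters. Even the adjusted threshold was passed by 43.8% of all clusters at 31 days, so this count does not set the members apart there. The MEC1 and control mice did not overlap for 4 of the 8 at 21 days, 3 lower and 1 higher, where 28.5% of all clusters did not overlap (13.7% lower). At 31 days they did not overlap for 4, all lower, where 59.6% of all did not. The median change of the 8 was -0.16 at 21 days and -0.23 at 31 days, against 0.02 and 0.04 over all clusters. In these bulk samples, fewer cells of a type and less RNA per cell cannot be told apart.

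**Figure D1:**
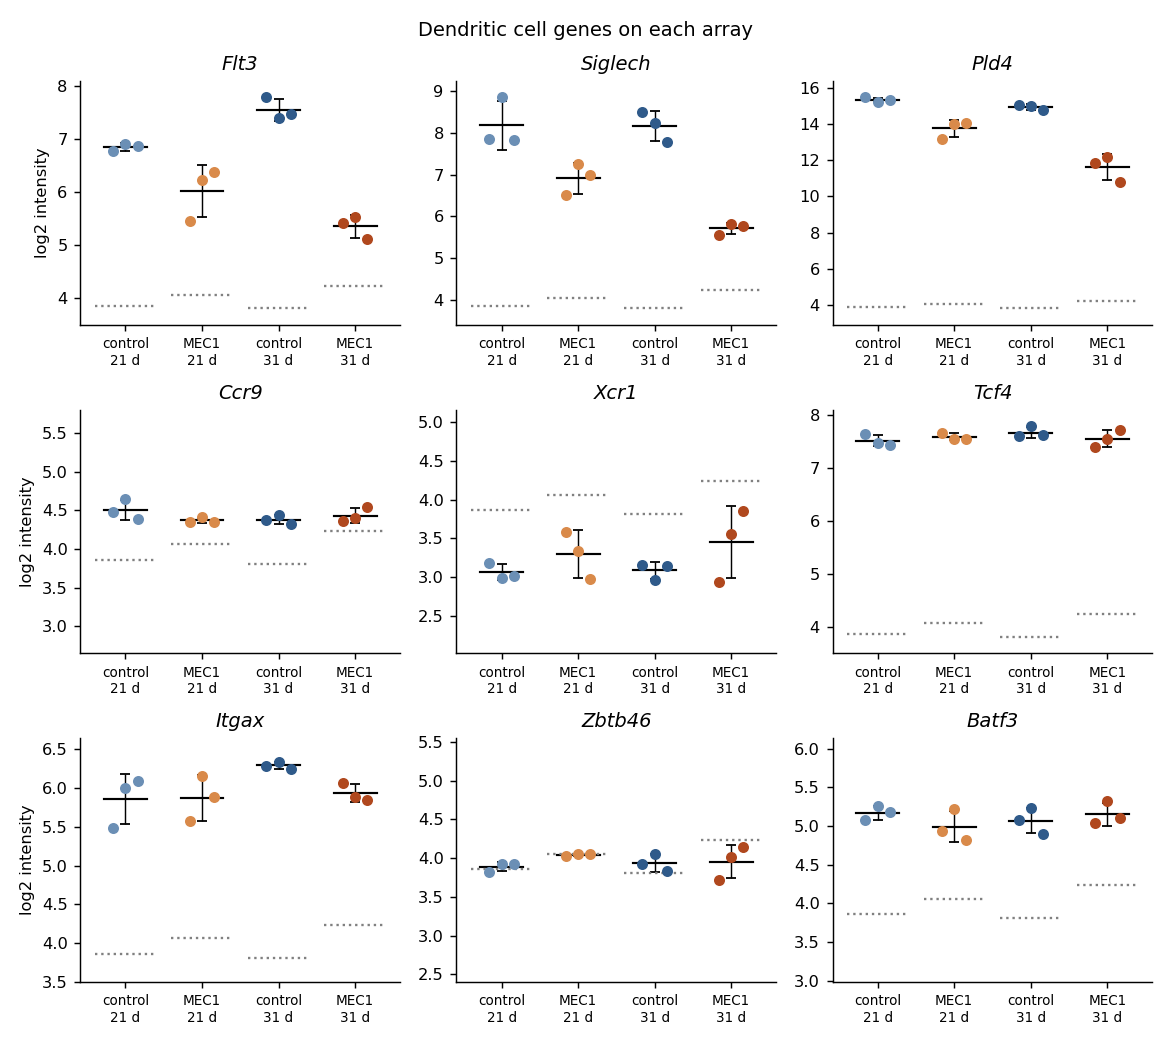
Log2 intensity (y axis) of the 9 members on each of the 12 arrays, by group (x axis). Points are mice, black lines and bars the mean ± SD of 3 mice, and grey dotted lines the mean array median of the group; each panel has its own y range. Flt3, Siglech and Pld4 lay lower in every MEC1 mouse than in any control of the same day, while Ccr9, Zbtb46 and Xcr1 stayed close to or below the array median.

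Flt3, the receptor tyrosine kinase of dendritic cell progenitors, was lower with MEC1 on both days, and the change passed at 31 days. At 21 days its log2 intensity was 6.77, 6.91 and 6.86 in control mice and 5.46, 6.22 and 6.37 in MEC1 mice. At 31 days it was 7.78, 7.40 and 7.46 in control mice and 5.42, 5.52 and 5.11 in MEC1 mice. The groups did not overlap on either day, and the gap between them was 0.40 at 21 days and 1.88 at 31 days. The log2 change of Flt3 at 31 days was -2.20, a 4.58-fold fall (SE 0.229, adjusted p = 0.000295). At 21 days the change was -0.83 (SE 0.229, adjusted p = 0.0665), which did not pass, though it did without MEC1 replicate 3 of that day (-1.01, adjusted p = 0.0329) and with array weights (-0.69, adjusted p = 0.00241). The median change of all clusters within 1 log2 unit of the control level was -0.74 at 31 days (5891 clusters, 49.3% of them fallen), so the interval of the fall of Flt3, -2.70 to -1.69, lay beyond it. The fall at 31 days passed in all 12 fits that left out 1 array (-2.28 to -2.08). It did not pass when the mean of the hybridisation controls entered the model as a covariate (-1.40, adjusted p = 0.53). This covariate nearly follows the groups, so a fit with it cannot tell the array level from an effect of MEC1.

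Siglech, the lectin that marks mouse plasmacytoid dendritic cells, fell on both days. At 21 days it stood at 7.85, 8.84 and 7.82 in control mice and at 6.52, 7.25 and 6.98 in MEC1 mice. At 31 days it stood at 8.48, 8.23 and 7.78 in control mice and at 5.56, 5.82 and 5.77 in MEC1 mice. Every MEC1 mouse was below every control of its day, and the 3 MEC1 mice at 31 days were close to each other (SD 0.138). The log2 change was -1.25 at 21 days, a 2.38-fold fall (SE 0.296, adjusted p = 0.0426), and -2.45 at 31 days, a 5.45-fold fall (SE 0.296, adjusted p = 0.000506). The call at 21 days was close to the threshold: it was kept only when MEC1 replicate 3 of 31 days was left out, and lost when any other of the 12 arrays was (adjusted p of up to 0.142). It was also lost with no filter (adjusted p = 0.055), with the 6 arrays of that day alone (adjusted p = 0.112), with quantile normalization (-0.87, adjusted p = 0.151) and with the covariate (-1.35, adjusted p = 0.423). The fall at 31 days passed in all 12 (-2.64 to -2.29), and with the covariate its size was similar but it did not pass (-2.61, adjusted p = 0.38).

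Pld4, an exonuclease of the endolysosome that digests single-stranded nucleic acids and so limits sensing by Toll-like receptors, had the largest change among the 8 on both days. At 21 days its log2 intensity was 15.47, 15.23 and 15.32 in control mice and 13.19, 13.99 and 14.08 in MEC1 mice. At 31 days it was 15.06, 15.01 and 14.77 in control mice and 11.84, 12.17 and 10.81 in MEC1 mice. Control mice varied little, with SDs of 0.121 and 0.155, and the MEC1 mice lay at least 1.15 and 2.60 below them. The change was -1.59 at 21 days (SE 0.329, adjusted p = 0.0292) and -3.34 at 31 days, or 10.1-fold lower (SE 0.329, adjusted p = 0.000213). Clusters within 1 log2 unit of its control level had a median change of -0.18 at 21 days and -0.73 at 31 days. The call at 21 days was lost when any of the 3 controls or MEC1 replicates 1 or 2 of that day was left out (adjusted p of up to 0.102), and kept without each of the other 7 arrays. With the covariate the changes were -0.21 and -0.90 (adjusted p = 0.906 and 0.72). The part of the shift of whole arrays in these falls was not tested beyond these fits.

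The 2 chemokine receptors among the members, Ccr9 and Xcr1, were dim on every array. Ccr9 responds to CCL25 and is carried by plasmacytoid dendritic cells, and Xcr1 responds to XCL1 and is carried by type 1 conventional dendritic cells. Ccr9 lay between 4.33 and 4.65 on all 12 arrays, above the array median on 12 and below the median of the array's negative control features on all of them. It changed by -0.14 at 21 days (95% interval -0.41 to 0.14, adjusted p = 0.52) and by 0.05 at 31 days (-0.22 to 0.33, adjusted p = 0.74). With arrays centred on their median the latter turned to -0.38 (adjusted p = 0.0394), so no direction can be given. Xcr1 lay below the array median on all 12 arrays, from 2.94 to 3.85, and was not tested. Its group means were 3.06 ± 0.104 and 3.30 ± 0.307 in control and MEC1 mice at 21 days, and 3.08 ± 0.107 and 3.45 ± 0.465 at 31 days, with overlapping groups on both days. At these intensities a change of either receptor could not have been seen well.

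Tcf4, the E protein that sets and keeps the plasmacytoid fate, had no change that passed, although it was well above the array median. Its values were 7.63, 7.47 and 7.43 in control and 7.66, 7.55 and 7.54 in MEC1 mice at 21 days. They were 7.59, 7.79 and 7.61 in control and 7.39, 7.55 and 7.71 in MEC1 mice at 31 days. The groups overlapped on both days, and all 12 arrays lay between 7.39 and 7.79. The change was 0.07 at 21 days (95% interval -0.23 to 0.37, adjusted p = 0.76) and -0.11 at 31 days (-0.41 to 0.19, adjusted p = 0.508). Both intervals leave out a change as large as that of Siglech, while clusters within 1 log2 unit of Tcf4 had a median change of -0.76 at 31 days. The direction of Tcf4 at 31 days followed the scaling: it was -0.54 with arrays centred on their median (adjusted p = 0.00525) and 0.57 with quantile normalization (adjusted p = 0.0652). For Runx2, a factor that plasmacytoid dendritic cells share with bone-forming cells, no intensity was analysed.

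Itgax, Zbtb46 and Batf3, the members of conventional dendritic cells, did not pass on either day. Itgax, the integrin chain CD11c, stood at 6.29, 6.34 and 6.25 in control and 6.07, 5.89 and 5.85 in MEC1 mice at 31 days. The groups did not overlap on that day, as was the case downward for 28.4% of all tested clusters, and the change was -0.36 (95% interval -0.78 to 0.07, adjusted p = 0.151). At 21 days its groups overlapped, with 5.86 ± 0.324 in control and 5.87 ± 0.295 in MEC1 mice. With arrays centred on their median the change at 31 days was -0.79 (adjusted p = 0.0219), and clusters near its level had a median of -0.39 without centring.

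Batf3, the factor that type 1 conventional dendritic cells need, had means of 5.17 ± 0.0902 without and 4.99 ± 0.205 with MEC1 at 21 days. At 31 days its means were 5.07 ± 0.165 and 5.15 ± 0.147. Its changes were -0.18 (95% interval -0.52 to 0.16, adjusted p = 0.494) and 0.08 (-0.26 to 0.43, adjusted p = 0.673), and the groups overlapped. Batf3, at 4.82 to 5.32, lay close to the median of the negative control features and above it on 10 of 12 arrays. A change may therefore not have been seen well. Zbtb46, a zinc finger repressor of the conventional lineage, was above the array median on 6 of 12 arrays, between 3.72 and 4.14. Like Ccr9, it lay below the median of the negative control features on all 12, so a change could not have been seen well. Its changes were 0.16 (adjusted p = 0.51) and 0.02 (adjusted p = 0.915). At 31 days the latter turned to -0.40 with quantile normalization (adjusted p = 0.0485) and to -0.41 with centred arrays (adjusted p = 0.0345), so its direction was set by the scaling. At 21 days its MEC1 mice all lay above the controls, as 14.9% of all tested clusters did.

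**Figure D2:**
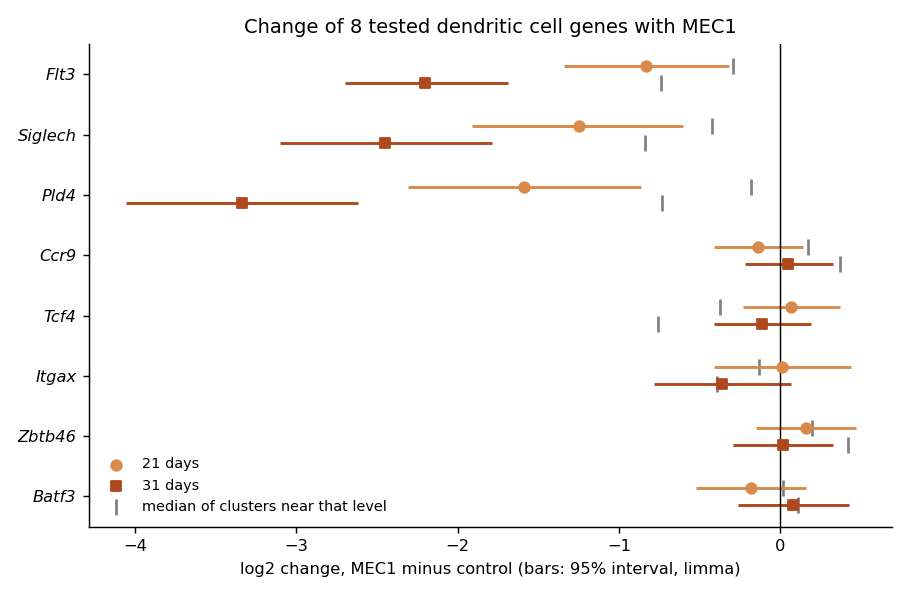
Log2 change with MEC1 (x axis, MEC1 minus control) of the 8 tested members (y axis) at 21 days (circles) and 31 days (squares). Bars are 95% intervals from limma, and grey ticks the median change of all tested clusters within 1 log2 unit of the member's control level. The intervals of Flt3, Siglech and Pld4 at 31 days end at -1.69 or lower and lie to the left of their ticks; those of the other 5 include 0.

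The falls of Flt3, Siglech and Pld4 were larger at 31 than at 21 days, by -1.37, -1.19 and -1.75 (SE 0.324, 0.419 and 0.465), but the difference between days did not pass for any (adjusted p = 0.291, 0.34 and 0.325). With array weights it passed for Flt3 (-1.37, adjusted p = 0.014) and Pld4 (-1.57, adjusted p = 0.0215). Of the 8 tested members 3 had an unadjusted limma p under 0.05 for this difference. Without the same share over all clusters, which was not counted, this says nothing about the members in particular. At the adjusted threshold limma called none of the 8 and 1 of all clusters (0.00269%). Averaged over both days 3 of the 8 fell, with log2 changes of -1.51, -1.85 and -2.46 (adjusted p = 0.000166, 0.000207 and 8.76e-05). Of all clusters 48.3% passed in that average, 23.3% as falls and 24.9% as rises. The comparisons of each day and their average share the same arrays. Between control mice of 31 and 21 days none of the 8 passed the adjusted threshold, and 3 of all clusters (0.00806%) did. Unadjusted, 2 of the 8 had a limma p under 0.05, a share that was not counted over all clusters and so is not read as a result. Flt3 was 0.70 higher in the older controls (SE 0.229, adjusted p = 0.5), and Itgax 0.43 higher (SE 0.194, adjusted p = 0.756). Siglech and Pld4 differed by -0.01 and -0.39 (adjusted p = 0.998 and 0.962).

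**Figure D3:**
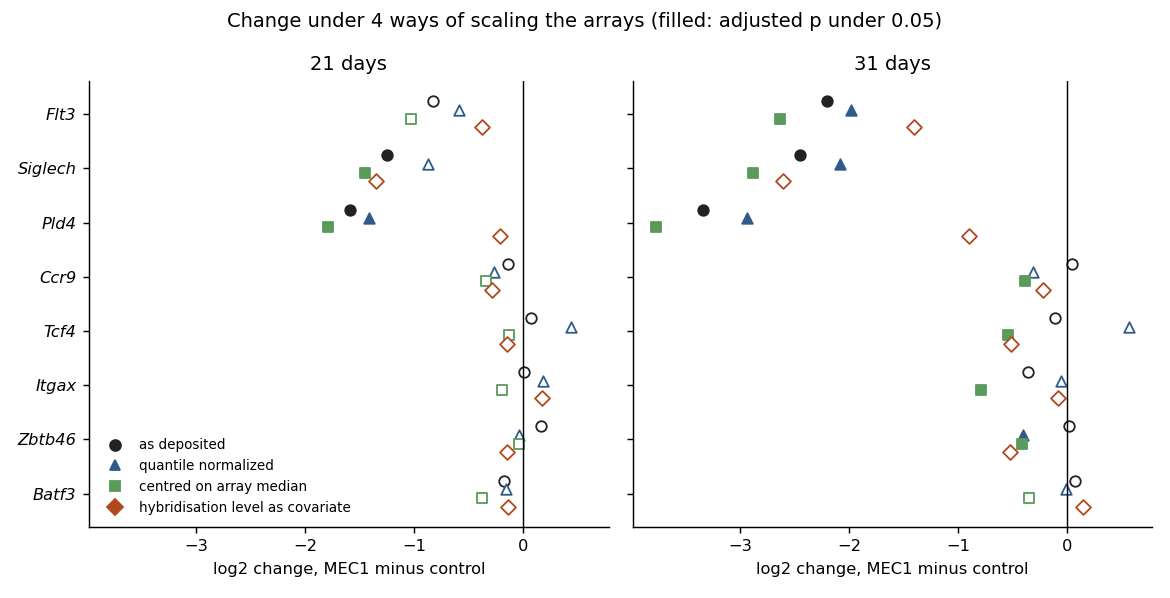
Log2 change with MEC1 (x axis) of the 8 tested members (y axis) at each day under 4 treatments of the arrays: as deposited, quantile normalized, centred on the array median, or with the hybridisation controls as covariate. Filled symbols passed an adjusted p of 0.05. Flt3, Siglech and Pld4 at 31 days passed under the first 3 and under none with the covariate, while the symbols of Ccr9, Tcf4, Zbtb46 and Batf3 lie on both sides of 0 at 31 days.

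The other genes of plasmacytoid dendritic cells fell in part. Of 24 listed, 21 were tested: 1 fell at 21 days and 7 fell at 31 days, where 2.51% and 21.1% of all clusters fell, and none rose on either day. Their median change was -0.21 and -0.26. With centred arrays 13 fell at 31 days, where 13739 of all 37240 clusters fell. With array weights 5 fell at 21 days, where 7476 of all did. Bcl11a, a factor upstream of Tcf4, fell at 31 days by a log2 change of -2.16 (SE 0.285, adjusted p = 0.000599), from 7.49 ± 0.22 to 5.33 ± 0.17. Tlr7, the endosomal receptor for single-stranded RNA, fell on both days, with -2.66 (adjusted p = 0.00547) and -1.80 (adjusted p = 0.00383), and both calls were kept whichever of the 12 arrays was left out. Kmo, an enzyme of tryptophan breakdown, and Cyb561a3, a cytochrome of the lysosome, changed by -1.40 and -1.53 at 31 days (adjusted p = 0.0025 and 0.0026), the latter by -0.94 with quantile normalization. The defining genes Spib, Ly6d and Cox6a2 were dim, with means over all arrays of 4.23, 4.33 and 4.35, and none of them passed. Bst2, an antiviral protein of plasmacytoid cells and of cells exposed to interferon, had a change of -1.73 at 31 days (SE 0.679, adjusted p = 0.0593).

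Genes of conventional dendritic cells were counted by type. Of 8 tested type 1 genes none passed in limma at 21 days. An unadjusted p under 0.05 was found there for 1, a share not counted over all clusters. At 31 days 4 fell and 1 rose, with a median of -1.02, where 21.1% of all clusters fell and 22.6% rose. With array weights 2 fell at 21 days, where 7476 of all 37240 clusters did. Clec9a, the receptor for actin of dead cells, fell from 5.57 ± 0.356 to 4.34 ± 0.367 (log2 change -1.23, SE 0.247, adjusted p = 0.00393). The latter mean was below that of the negative control median in the same mice (4.63). Wdfy4, needed for cross-presentation, changed by -1.25 (adjusted p = 0.00343, and by -0.61 with quantile normalization) and Snx22 by -1.22 (adjusted p = 0.00854), while Gcsam rose by 0.66 (adjusted p = 0.0197), a call lost without control replicate 1 or 2 or MEC1 replicate 3 of that day (adjusted p of up to 0.0674) and with quantile normalization or centred arrays (0.32 and 0.23, adjusted p = 0.19 and 0.287). Cadm1, an adhesion molecule of type 1 cells, was dim (4.34 over all arrays) and changed by 0.12 at 31 days (adjusted p = 0.491).

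Of 10 tested type 2 genes 2 fell at 21 days, and 6 fell and 1 rose at 31 days, with medians of -0.60 and -0.95, where 2.51% of all clusters fell at 21 days and 21.1% at 31 days. The falls at 21 days numbered 5 with quantile normalization, 4 with centred arrays or the 70th percentile filter, 7 with array weights and 1 with no filter. Over all clusters the falls numbered 458, 1461, 1160, 7476 and 686 in that order. The clusters tested numbered 22205 with the 70th percentile filter, 65956 with no filter and 37240 otherwise. Cd209a, a lectin of monocyte-derived and type 2 cells, had the largest change of this list. It stood at 9.85, 9.54 and 9.08 in control and 5.54, 6.05 and 6.15 in MEC1 mice at 21 days. The values at 31 days were 9.07, 10.01 and 8.57 without and 5.33, 5.44 and 5.71 with MEC1. These groups were at least 2.86 apart on each day, the changes were -3.58 and -3.72 (SE 0.337 each, adjusted p = 0.00112 and 0.000166), and both passed in every fit that left out 1 array. Klf4, a factor of type 2 cells and of monocytes, changed by -1.79 and -3.36 (adjusted p = 0.0411 and 0.000559), the first of which was lost without any of 7 arrays (control replicates 2 and 3 and MEC1 replicates 1 and 2 of 21 days, control replicates 2 and 3 and MEC1 replicate 2 of 31 days; adjusted p of up to 0.138), with no filter (0.0554) and with the 6 arrays of that day alone (0.101). Notch2, the receptor that type 2 cells of the spleen need, had -1.44 at 21 days (adjusted p = 0.0508, between 0.000568 and 0.0472 under 5 other settings) and fell at 31 days with -2.20 (adjusted p = 0.0016). Esam, a junction protein, rose by 0.83 at 31 days (adjusted p = 0.00387) from a control mean of 3.52, below the array median, and by 0.41 and 0.40 with quantile normalization and centred arrays. It lay above the array median on MEC1 arrays only, so it was tested only through the group in which it is high. The rise of Ccl17, from 4.24, and that of Gcsam, from 4.02, also began close to the array median, where clusters in general rose (median change of 0.39 and 0.41 near those levels).

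Genes of mature and migratory dendritic cells included more rises than falls at 31 days. Of 6 tested, 1 fell at 21 days and 5 rose at 31 days, with medians of 0.28 and 0.68, where 22.6% of all clusters rose. Ccr7, the receptor that guides dendritic cells to lymph nodes, was 6.30, 5.94 and 5.88 in control and 8.22, 9.20 and 9.93 in MEC1 mice at 31 days. The MEC1 mice were all above the controls, as was the case for 31.2% of all tested clusters on that day. The log2 change of Ccr7 was 3.08, an 8.44-fold rise (SE 0.395, adjusted p = 0.000559). The part of RNA from the human MEC1 cells, which are B cells, in the rises of this list was not tested. At 21 days Ccr7 had a change of 1.36 that did not pass (adjusted p = 0.0779), though it did with array weights (1.3, adjusted p = 0.000864). Cd274, which encodes the checkpoint ligand PD-L1, rose by 1.31 (SE 0.244, adjusted p = 0.00273), and Relb, an NF-kB subunit of maturing cells, by 0.64 (adjusted p = 0.0102). Ccr7 and Cd274 passed under both other scalings, while with centred arrays Relb had 0.21 (adjusted p = 0.415) and Ccl17 0.28 (adjusted p = 0.131), and with quantile normalization Relb had 1.06 (adjusted p = 0.00132) and Ccl17 0.48 (adjusted p = 0.0577). Cd83, a maturation marker, was read from the brightest cluster of its name, which the array's identifier marks as unmapped. There it fell at 21 days with -2.06 (SE 0.31, adjusted p = 0.00805), against a smaller -1.23 over the mean of its clusters. At 31 days it had -0.66 (adjusted p = 0.102), and passed as a fall with quantile normalization (-0.99, adjusted p = 0.0398), centred arrays (-1.09, adjusted p = 0.0276) and array weights (-0.88, adjusted p = 0.0185). Fscn1, Ccl22, Il12b and Socs2, other genes of this programme, lay at or below the array median on at least 9 of 12 arrays.

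Of 17 tested regulators of dendritic cell development, 2 fell at 21 days and 8 at 31 days, and none rose on either day (median -0.38 and -0.63). Of all clusters 2.51% and 21.1% fell. The falls at 21 days numbered 11 with array weights and 0 with the 6 arrays of that day alone. Over all 37240 clusters 7476 and 291 fell under these settings. Irf8, the factor that commits progenitors to dendritic cells and monocytes, was 11.48, 11.47 and 11.48 in control and 9.39, 9.03 and 8.16 in MEC1 mice at 31 days. It fell with a log2 change of -2.62, or 6.13-fold (SE 0.378, adjusted p = 0.00088), and at 21 days had -0.66 (adjusted p = 0.314, or 0.0185 with array weights). Runx1, Ikzf1 and Csf2ra, which encode 2 factors of early blood cells and the GM-CSF receptor, had -2.08, -1.71 and -1.54 (adjusted p = 0.000628, 0.00196 and 0.00151). Csf2ra also fell at 21 days (-1.04, adjusted p = 0.0459), a call kept only without MEC1 replicate 1 or 3 of 31 days (adjusted p of up to 0.149 otherwise) and lost with quantile normalization (-0.65, adjusted p = 0.176). With quantile normalization its change at 31 days was -1.01. Flt3l, the ligand of Flt3, was 5.95 ± 0.312 in control and 5.52 ± 0.0577 in MEC1 mice at 31 days, a change of -0.42 that did not pass (adjusted p = 0.0532).

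Among 7 partners and inhibitors of E proteins, the family of Tcf4, 2 fell at 21 days and 5 at 31 days (median -0.45 and -0.81), where 2.51% and 21.1% of all clusters fell. With quantile normalization 3 fell at 31 days, and the falls at 21 days ranged from 0 with the 6 arrays of that day alone to 4 with array weights. Over all 37240 clusters the falls under these settings numbered 5620, 291 and 7476. The E protein genes Tcf3 and Tcf12 had -1.53 and -0.95 at 31 days (adjusted p = 0.00306 and 0.00268). The call of Tcf12 was lost under quantile normalization (-0.27, adjusted p = 0.25). The corepressor genes Cbfa2t3 and Cbfa2t2 had -0.69 and -0.81 (adjusted p = 0.00848 and 0.00975), and -1.12 and -1.24 with centred arrays. Id2, which blocks E proteins and favours conventional over plasmacytoid cells, fell at 21 days with -2.15 (SE 0.404, adjusted p = 0.0211, up to 0.0681 without control replicate 1 or 2 of that day, 0.078 with the 6 arrays of that day alone, and -1.36 with array weights) and had -0.63 at 31 days (adjusted p = 0.217). Id3, another inhibitor, fell at 21 days with -0.69 (adjusted p = 0.0495), a call that was kept only without control replicate 1 of either day or MEC1 replicate 3 of 31 days (adjusted p of up to 0.147 otherwise). It was lost as well with no filter, quantile normalization and the 6 arrays of that day alone (adjusted p = 0.0558, 0.0634 and 0.101). Of the 8 tested genes of class II presentation and costimulation 1 fell at 21 days, the costimulator Cd86 with -2.31 (adjusted p = 0.00887). Cd86 had -0.80 at 31 days (adjusted p = 0.0875), and passed there with centred arrays (-1.23, adjusted p = 0.0194). At 31 days 3 fell (5 with centred arrays, where 13739 of 37240 fell) and 1 rose, where 21.1% and 22.6% of all clusters did. H2-DMa and H2-DMb1, which load peptides on class II molecules, had -1.64 and -1.30 (adjusted p = 0.000949 and 0.00443), the former -0.96 with quantile normalization. H2-Aa had -0.74 (adjusted p = 0.0368, up to 0.129 without control replicate 1 or 2 or MEC1 replicate 2 or 3 of that day), which was lost with quantile normalization, array weights and the 6 arrays of that day alone (adjusted p = 0.134, 0.083 and 0.0913) and was -1.17 with centred arrays. Cd80 rose by 1.55 (adjusted p = 0.00578), and the part of RNA from MEC1 cells in this rise was not tested.

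**Figure D4:**
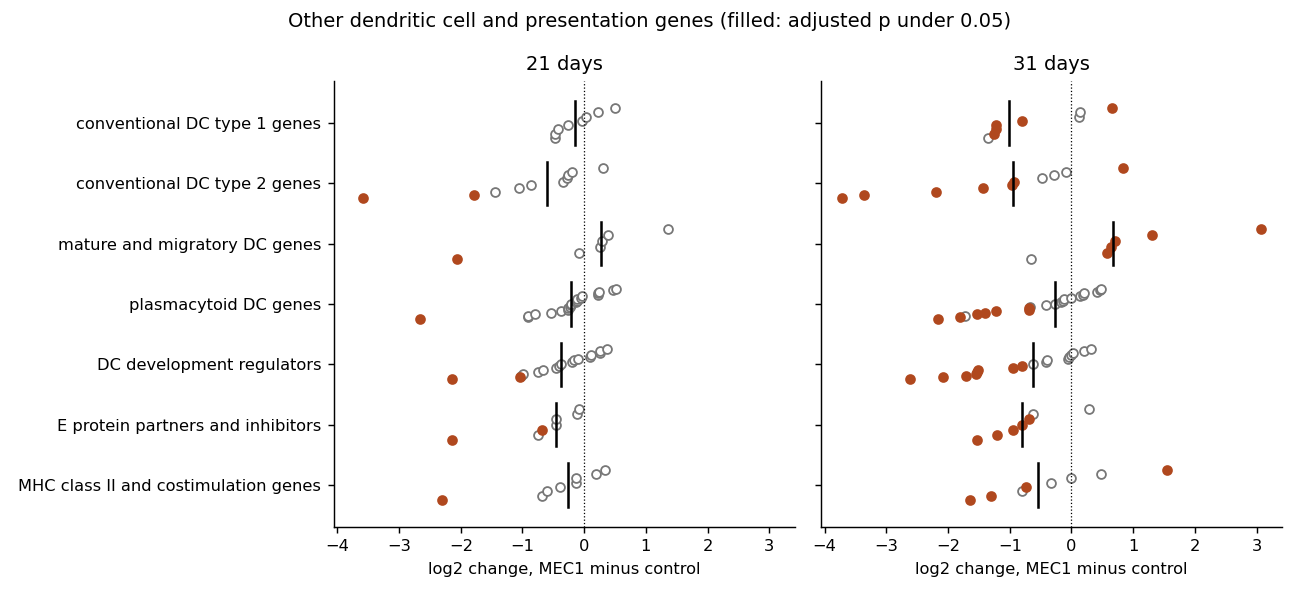
Log2 change with MEC1 (x axis) of each tested gene in 7 lists (y axis) at 21 and 31 days. Filled points passed an adjusted p of 0.05 over all clusters, and vertical bars are list medians. At 31 days the median was above 0 for the mature and migratory list (0.68) and below 0 for the other 6.

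Markers of other cell types moved on the same arrays, beside the falls of Siglech and Pld4 at 21 days and of Flt3, Siglech and Pld4 at 31 days. Over all clusters 2.51% fell and 1.83% rose at 21 days, and 21.1% fell and 22.6% rose at 31 days. Of 10 monocyte and macrophage genes 1 fell at 21 days, and 8 fell and 1 rose at 31 days (4 fell with the 6 arrays of that day alone). The rise was that of Mertk. It lay above the array median on MEC1 arrays only, so it was tested only through the group in which it is high. The mean level of the 10 genes was 11.83 to 11.94 in control and 9.79 to 11.22 in MEC1 mice at 31 days. Lyz2 and Ly6c2, the brightest, had -1.72 and -1.61 (adjusted p = 0.0141 and 0.026). Of 6 tested erythroid genes 4 fell at 21 days (median -3.23) and 6 at 31 days (median -6.63). Rhag had -3.59 (adjusted p = 0.108) and -8.84 (adjusted p = 0.000636), and Slc4a1 -4.05 (adjusted p = 0.0291) and -8.53 (adjusted p = 0.000213). The list's mean level was 10.25 to 12.04 in control and 6.50 to 10.19 in MEC1 mice at 21 days, and 11.50 to 12.02 and 4.98 to 5.80 at 31 days. With the 6 arrays of 21 days alone 0 of these 6 passed as falls, and with no filter 2 did.

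Of 6 tested stem and progenitor genes, a compartment that also carries Flt3, none passed at 21 days (limma, none with an unadjusted p under 0.05). For this and the B lineage list, the shares over all clusters were 2.51% lower and 1.83% higher at 21 days. They were 21.1% lower and 22.6% higher at 31 days. At 31 days 3 fell without centring: Cd34 with -1.98 (adjusted p = 0.00114), Kit with -1.87 (adjusted p = 0.00154) and Gata2. With centred arrays 5 fell on that day, where 13739 of all 37240 clusters did. The mean level of the stem and progenitor list was 5.71 to 6.03 in control and 5.19 to 5.42 in MEC1 mice at 31 days. Of 6 tested B lineage genes 2 rose at 21 days, and 4 rose and 1 fell at 31 days. Among those that rose, Ebf1 and Cd79a lay above the array median on MEC1 arrays only. They were tested only through the group in which they are high. Pax5 rose on both days, by 1.34 (adjusted p = 0.00378) and 2.23 (adjusted p = 8.5e-05), and Cd79b had 0.28 and -0.18 (adjusted p = 0.443 and 0.51). The B lineage list had means of 4.16 to 4.21 without and 4.6 to 4.75 with MEC1 at 21 days, and of 4.17 to 4.36 and 4.72 to 5.15 at 31 days. The part of RNA from MEC1 cells in the rises of this list was not tested.

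Of 9 neutrophil genes none passed at 21 days (limma, none with an unadjusted p under 0.05) and 3 fell at 31 days (0 with the 6 arrays of that day alone). For this and the next 2 lists, the shares over all clusters were 2.51% lower and 1.83% higher at 21 days. They were 21.1% lower and 22.6% higher at 31 days. Ngp and S100a8, the brightest, had -0.42 and 0.53 at 31 days (adjusted p = 0.316 and 0.425), and list means were 14.52 to 14.83 without and 12.24 to 14.57 with MEC1. Of 5 tested genes of T, natural killer and innate lymphoid cells 2 rose at 21 days, and 4 rose and 1 fell at 31 days. Among those that rose, Eomes lay above the array median on MEC1 arrays only and was tested only through that group. Tbx21 rose on both days, by 0.92 (adjusted p = 0.0369) and 1.17 (adjusted p = 0.00219), and Il7r had -0.52 (adjusted p = 0.335) and fell with -0.92 (adjusted p = 0.0364). The list means were 3.82 to 4.0 and 4.11 to 4.47 at 21 days, and 3.87 to 3.99 and 4.32 to 4.48 at 31 days, and the defining genes Cd3e, Cd8a, Ncr1 and Klrb1c lay at or below the array median on at least 9 arrays. Of 5 tested osteoblast and stromal genes none passed at 21 days (limma, none with an unadjusted p under 0.05), and 1 rose and 1 fell at 31 days. Col1a1 fell with -0.76 (adjusted p = 0.0374) and Col1a2 had -0.48 (adjusted p = 0.14), with list means of 4.03 to 4.50 and 4.02 to 4.32. The falls of this list at 31 days numbered 3 with quantile normalization, 4 with centred arrays, 2 with array weights and 0 with the 6 arrays of that day alone. Over all 37240 clusters the falls numbered 5620, 13739, 9591 and 7330 in that order. The part of these cells in the falls of Flt3, Siglech and Pld4 was not tested.

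Over the 12 arrays Flt3, Siglech and Pld4 varied together, with Pearson r of 0.91 for Flt3 and Siglech, 0.88 for Flt3 and Pld4, and 0.93 for Siglech and Pld4. After each group's mean was taken off, these were 0.51, 0.78 and 0.22, so much of the likeness lay in the difference between groups. Among 13799 other tested genes, the most like Flt3 were Gvin1 and Bid (r = 0.981 each), the most like Siglech Fancg and Pxn (0.981 and 0.969), and the most like Pld4 Wasf2 and Inpp5d (0.99 and 0.988). For the other 6 members the highest values were 0.739 to 0.953, with Mir669g and Disc1 for Ccr9, Defa34 and Olfr348 for Xcr1, Akr7a5 and Zfhx2 for Tcf4, Creb1 and Trmt10b for Itgax, Fsd1l and Olfr214 for Zbtb46, and Ikbkg and Crebzf for Batf3. The arrays share 4 groups and the shift of whole arrays, and these values describe them only.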

How the data were processed

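The deposited values were log2 intensities per transcript cluster. The tools listed per the submitters' processing notes are Affymetrix Expression Console and RMA, without versions, and the genome build is not given in the sources used here. Of 72688 features 6732 controls were left out. Gene names were taken from the annotation of the platform and updated through RefSeq: 31258 clusters had 1 symbol, 1492 several and 33206 none. Each of the 9 members found had a single cluster. Clusters above the median of their array on 3 or more arrays were tested (37240). For these, limma 3.58.1 (R 4.3.3) estimated 1 mean per group, 4 in all. The p-values are two-sided, with Benjamini-Hochberg adjustment across the tested clusters and a threshold of 0.05. P-values rest on 1 spread per cluster, pooled over the 4 groups of 3 mice and moderated across clusters. They do not measure the spread of the compared groups alone: Pld4 had SDs of 0.121 to 0.709 in its groups. The number of arrays limits the precision.

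The members, the gene lists and the alternatives were chosen with earlier results of these data known; lists are described by counts, medians and the same over all clusters. From each list, genes called at 31 days (up to 4 by smallest p) or at 21 days (up to 2) were named, with the 2 brightest of each marker list and the 2 genes most correlated with each member. Genes named outside this rule (Spib, Ly6d, Cox6a2, Bst2, Cadm1, Flt3l, Gata2, Mertk, Ebf1, Cd79a, Eomes and the dim genes listed as such) were chosen after their values were seen. Tested on simulated data for the comparison at 31 days (37240 clusters), the fit found 41.8%, 82.1% and 93.9% of simulated falls of log2 1, 2 and 3, with 8 false calls. Only 67, 67 and 66 clusters were changed there, with independent noise and no shift of whole arrays. In the data 43.8% of clusters were called at 31 days and whole arrays differed, so these shares and false calls do not carry over. The replicate numbers mark separate mice. Alternatives were other filters, quantile normalization, centring, a replicate block, the 6 arrays of a day, array weights, other moderation, the mean of a gene's clusters, the mean hybridisation control as covariate, and leaving out each array.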

Additional observations from a re-analysis of the deposited data

How the results depend on the processing

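At 31 days the falls of Flt3, Siglech and Pld4 passed in all 12 fits that left out 1 array and in 9 of 10 other settings, the covariate being the exception. None of the 16 changes of members and none of the 64 of named list genes passed with the covariate, the hybridisation-control level. Of its variance 92.1% lay between the 4 groups, with MEC1 arrays at 11.8 or higher and control arrays at 10.87 or lower. This fit therefore cannot tell an effect of MEC1 from the array level, and the cause of that difference was not tested. With the covariate the changes at 31 days turned to 0.73 for Wdfy4, -0.49 for Gcsam, 0.87 for Notch2, -0.35 for Ccl17, 0.41 for Cyb561a3, 0.18 for Csf2ra, 0.75 for Ikzf1, 0.05 for H2-DMb1 and 0.61 for H2-Aa. Ccr9 at 31 days turned to -0.38 with centred arrays and Zbtb46 to -0.40 with quantile normalization and -0.41 with centred arrays; Tcf4, averaged over both days, turned from -0.02 to 0.50 with quantile normalization (adjusted p = 0.026). The count at 21 days, 1615, was 1066 with quantile normalization, 454 with the 6 arrays of the day, 15923 with array weights and 4 with the covariate, and 330 to 2883 with 1 array left out: 1042, 460 and 391 without control replicates 1, 2 and 3 of that day, 330, 351 and 2883 without its MEC1 replicates, 761 without control and 2718 without MEC1 replicate 3 of 31 days. That at 31 days, 16297, was 30065 with no filter, 10483 with the 70th percentile filter, 10646 with quantile normalization and 7 with the covariate, and 10647 to 16847 with 1 array left out (10647 without control replicate 2, 10859 without MEC1 replicate 3 of that day). The average, 17977, was 33412, 11519, 11905 and 6 in the same order, and 14415 to 18975. The difference between days, 1, was 17 with quantile normalization, 1573 with array weights and 4 with the covariate, and 1 to 5; the older against the younger controls, 3, was 10, 266 and 15, and 1 to 12. With the replicate block, where numbers mark separate mice and same-numbered arrays correlated at -0.17 to 0.42 in their deviations, the count at 21 days was 831 and Pld4 there did not pass (-1.59, adjusted p = 0.0513). Of 3 MEC1 arrays a day, 2 at 21 days and 1 at 31 days correlated best with the control of their own number. Depth has no counterpart here. Signal near the array median limits Ccr9, Zbtb46 and Xcr1, and signal near the negative control features limits Batf3.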

Other observations

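For Cd83, Cd86, Id2 and Id3, which passed as falls at 21 days and not at 31 days in the deposited scaling, the levels of the control mice of both days are given here. The values of Cd83 are those of its cluster marked as unmapped. With centred arrays Cd83 (-1.09, adjusted p = 0.0276) and Cd86 (-1.23, adjusted p = 0.0194) passed as falls at 31 days too, and Cd83 also with quantile normalization and array weights. From 21 to 31 days without MEC1, Cd86 had a log2 change of -2.26 (SE 0.354, adjusted p = 0.092), Cd83 one of -1.53 (SE 0.31, adjusted p = 0.169), Id2 one of -1.33 (SE 0.404, adjusted p = 0.434) and Id3 one of -1.04 (SE 0.172, adjusted p = 0.106), none of which passed in limma. Cd86 was 11.55, 10.33 and 10.44 in control mice at 21 days and 8.04, 8.73 and 8.78 at 31 days, and the MEC1 mice of 21 days stood at 8.29, 8.90 and 8.19, of which 2 lay within the range of the older controls and 1 above it. The MEC1 effect was higher at 31 than at 21 days by 1.52 for Cd86, 1.39 for Cd83, 1.52 for Id2 and 0.98 for Id3, with adjusted p of 0.333, 0.331, 0.352 and 0.31, so a difference between days was not called.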
